A study of Mus musculus with 6 samples.

Results

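The genes described here encode glutathione S-transferases (Gst and Mgst), glutathione peroxidases (Gpx), peroxiredoxins (Prdx), and the thioredoxins with their reductases, inhibitor and relatives (Txn). They were chosen by symbol, as the probe sets annotated with 1 gene symbol that begins with Gst, Mgst, Gpx, Prdx or Txn, with Gstcd left out. This gave 92 of 45037 probe sets, which stand for 52 of 18193 genes with such a probe set. Where a gene had several probe sets, the one with the highest mean stood for it. The RNA was measured on 6 Affymetrix GeneChip Mouse Genome arrays, 3 of dedifferentiated fat (DFAT) cells and 3 of mature adipocytes (AC). DFAT cells are a proliferating mouse line that arose when mature adipocytes of GFP transgenic mice were kept in ceiling culture, in which floating fat cells attach to the upper face of the vessel, and by the labels they had been grown to semiconfluence. AC were primary adipocytes isolated from mouse fat tissue. Strain and age are not given in the sources used here, nor is whether replicate arrays hold RNA of different animals or cultures. The p-values therefore measure the spread among these arrays, which may be technical. All values below are on the log2 scale, after normalization with RMA by the authors, and a difference is DFAT cells minus AC.

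Glutathione is a small thiol that cells use against electrophiles and peroxides. The transferases couple it to reactive compounds, and the glutathione peroxidases spend it to reduce hydroperoxides. Peroxiredoxins do the same work with electrons from thioredoxin, which thioredoxin reductase recharges with NADPH, and Txnip binds thioredoxin and also restrains glucose uptake. In fat cells these systems are known to handle the aldehydes and peroxides that arise from stored lipid, and some members serve the folding of secreted proteins in the endoplasmic reticulum (ER).

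At an adjusted p of 0.05 from limma, 23 of the 52 genes fell in DFAT cells, 11 rose, and the remaining 18 missed the threshold. Thus 44.2% were lower and 21.2% were higher, where the same test called 23.8% of all genes lower and 22.6% higher, 46.4% in all. All genes include many at background level, defined below, in both groups. Of the 45 members above it in a group, 48.9% fell and 24.4% rose, against 29.9% and 34.3% of 11444 such genes. In 40 of the 52 genes the DFAT and AC values did not overlap, which was so for 60.0% of all genes. Among all genes, 6.65% were lower by at least 4-fold and 4.78% were higher by at least 4-fold, against 12 and 1 of the 52. The median difference of the 52 genes was -0.33, and that of all genes was -0.10. The decreases lay mostly in the transferases, of which 12 of 20 soluble and all 3 membrane-bound (microsomal) genes fell, and the increases were led by the ER peroxiredoxin Prdx4, thioredoxin reductase Txnrd1 and the omega transferase Gsto1. By probe set, 31 of the 92 fell and 21 rose, where 18.1% and 20.3% of all probe sets did, 38.4% in all, and 51.9% of all probe sets had no overlap. Among all probe sets, 4.45% fell and 3.86% rose by at least 4-fold.

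**Figure D1:**
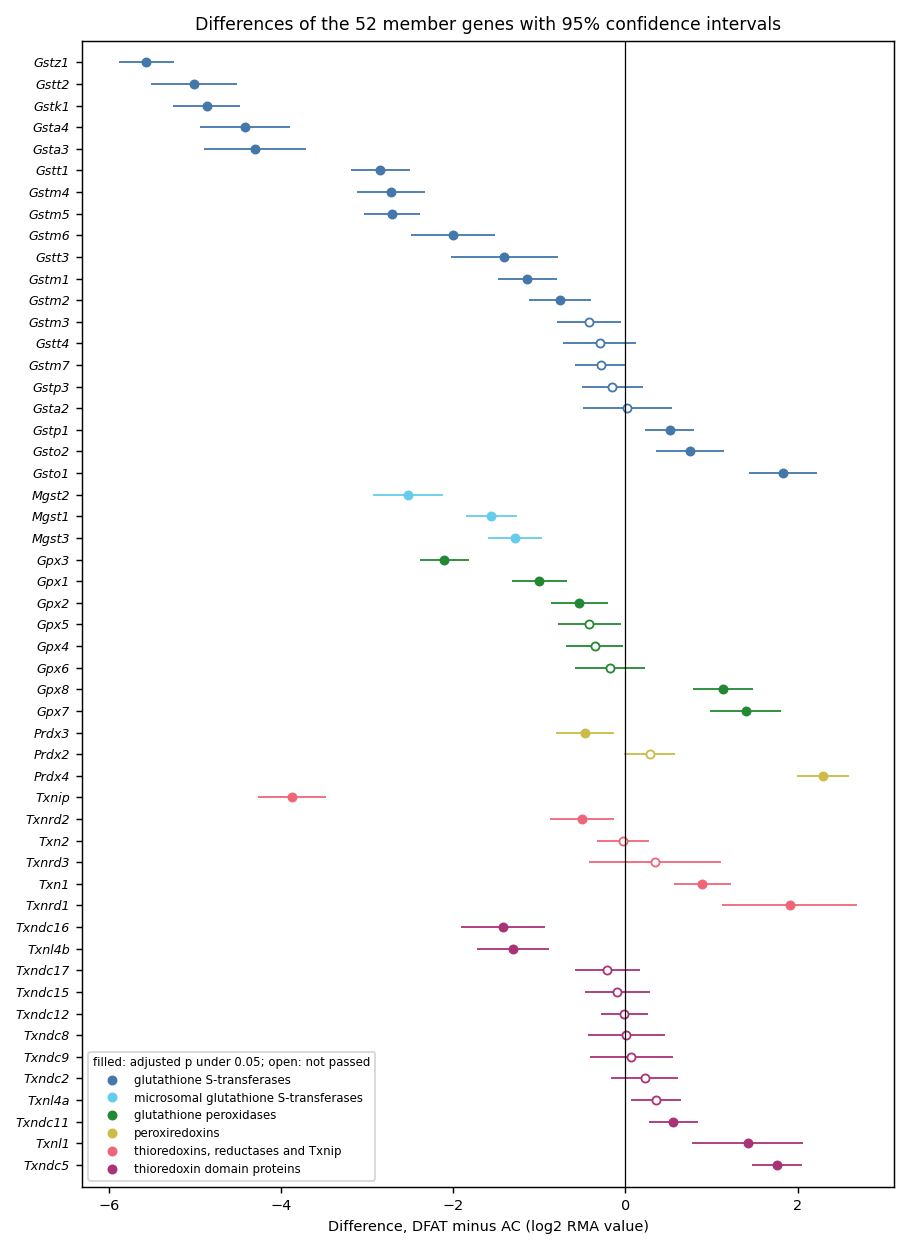
Differences between DFAT cells and AC for the 52 genes, grouped by family, on the log2 scale. Points are estimates from limma over 3 DFAT arrays and 3 AC arrays, lines are 95% confidence intervals, filled points passed an adjusted p of 0.05, and the scale runs from Gstz1 at -5.57 to Prdx4 at 2.30.

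Several facts of the arrays bear on these values. AC replicate 1 stood apart from the other AC arrays, with Pearson correlations of 0.971 and 0.969 across all probe sets, where those 2 arrays reached 0.992 and pairs of DFAT arrays 0.995 to 0.996. All 19 white adipocyte markers fell in DFAT cells and all 13 proliferation markers rose. Of markers for other cells, all 18 of endothelium were lower in DFAT cells. So were 15 of 17 of macrophages and leukocytes and 13 of 16 of epithelium and mammary gland, called epithelium below. In these lists 15, 14 and 14 markers were at background level in DFAT cells. Mean values of these 3 lists lay between 4.18 and 4.54 on the DFAT arrays, against 7.71 to 9.57 for endothelium, 6.30 to 8.05 for macrophages and 8.29 to 8.94 for epithelium on the AC arrays. AC replicate 1 had the highest endothelial and epithelial means and the lowest macrophage mean of the AC arrays. Of 11 stromal markers, 5 fell and 5 rose, with a mean of 8.76 to 8.80 on the DFAT arrays and 9.51 to 9.92 on the AC arrays. Dcn (decorin) fell by 8.14 to background level, and Thy1 rose by 4.94. The part of these cells in the differences below was not tested, and in such bulk RNA fewer cells of a type and less RNA per cell cannot be told apart. Without AC replicate 1, the same 34 genes kept their calls, and 24 fell and 12 rose in all. Over all probe sets 10324 then fell and 10674 rose, against 8133 and 9152 with all 6 arrays.

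To mark values too low to order, background level was defined per array as the 95th percentile of the 129 probe sets for genes known from sense organs and sperm, and a gene counted as being there when none of the 3 arrays of a group exceeded it. That percentile was 5.70 to 5.82 on the DFAT arrays and 5.71 to 5.86 on the AC arrays. In DFAT cells 15 of the 52 genes were at background level, against 8 in AC and 7 in both, and Gsto2 was so in AC alone. The size of a difference is not exact where a group is at background level.

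The strongest decreases were those of 5 soluble glutathione S-transferases. Gstz1, the zeta-class enzyme that isomerizes maleylacetoacetate in tyrosine breakdown, had 6.62, 6.77 and 6.91 in DFAT cells, against 12.43, 12.28 and 12.29 in AC. It fell by 5.57 (95% confidence interval -5.88 to -5.25, adjusted p = 1e-07 from limma), a 47.4-fold difference, and 0.584% of all probe sets had a lower difference. Gstz1 stayed above background level on every DFAT array. Gstk1, the kappa-class enzyme of mitochondria and peroxisomes, which in fat cells is known to promote the assembly of adiponectin, had 6.34, 6.07 and 5.83 in DFAT cells, against 10.89, 10.87 and 11.09 in AC. It fell by 4.87 (adjusted p = 3.76e-07 from limma) to just above background level. Gstt2, a theta-class enzyme, had 3.76, 4.27 and 3.99 in DFAT cells, against 9.40, 8.72 and 8.93 in AC and fell by 5.01 (adjusted p = 1.06e-06 from limma). Gsta4, which conjugates hydroxynonenal, an aldehyde made from lipid peroxides, had 4.80, 5.44 and 5.65 in DFAT cells, against 9.56, 9.87 and 9.73 in AC and fell by 4.42 (adjusted p = 2.8e-06 from limma). Gsta3, an alpha-class enzyme that in mouse liver detoxifies aflatoxin, had 5.73, 5.53 and 5.62 in DFAT cells, against 9.32, 10.11 and 10.35 in AC and fell by 4.30 (adjusted p = 6.51e-06 from limma). In DFAT cells Gstt2, Gsta4 and Gsta3 were at background level, and in all 5 genes every DFAT array lay below every AC array. The second probe set of Gsta3 also fell, by 3.66.

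In 3 transferases DFAT cells were higher. Gsto1, an omega-class enzyme that reduces dehydroascorbate, had 12.54, 12.48 and 12.55 in DFAT cells, against 10.38, 10.72 and 10.98 in AC and rose by 1.83 (adjusted p = 8.33e-05 from limma), with 1.91 from its second probe set. Gsto2, its close relative, had 6.21, 5.99 and 6.03 in DFAT cells, against 5.0, 5.48 and 5.51 in AC and rose by 0.75 (adjusted p = 0.00981 from limma), with AC at background level. Gstp1, the pi-class enzyme, had 12.91, 13.02 and 12.98 in DFAT cells, against 12.51, 12.42 and 12.44 in AC and rose by 0.51 (adjusted p = 0.0112 from limma). The groups did not overlap, and the call of Gstp1 was lost without DFAT replicate 2 or 3 (adjusted p = 0.0592 and 0.0525 from limma). The omega and pi classes thus had no gene that fell, and the alpha, kappa, mu, theta and zeta classes had none that rose.

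The 3 microsomal transferases, which sit in membranes of the ER and, for Mgst1, also of mitochondria, all fell and stayed above background level in both groups. Mgst1, an abundant enzyme that also reduces lipid hydroperoxides, had 11.95, 11.79 and 11.76 in DFAT cells, against 13.40, 13.31 and 13.46 in AC and fell by 1.56 (adjusted p = 3.92e-05 from limma). Mgst2, which can make leukotrienes, had 7.31, 7.43 and 7.33 in DFAT cells, against 9.53, 10.03 and 10.08 in AC and fell by 2.53 (adjusted p = 1.45e-05 from limma). Mgst3 had 11.46, 11.47 and 11.38 in DFAT cells, against 12.55, 12.73 and 12.88 in AC and fell by 1.29 (adjusted p = 0.000166 from limma). In each of them the lowest AC array was above the highest DFAT array. A second probe set of Mgst1 was at 3.37 to 3.72 in DFAT cells and 3.71 to 3.88 in AC, at background level, and did not pass the test.

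**Figure D2:**
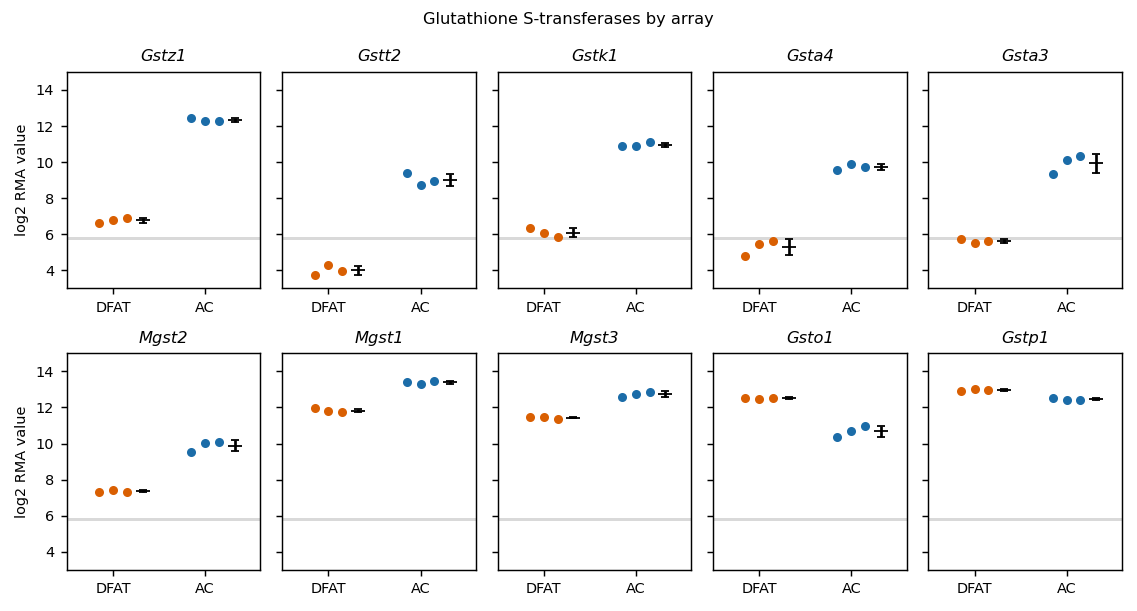
Log2 RMA values of 10 glutathione S-transferases on the 3 DFAT arrays and 3 AC arrays. Each point is an array, black marks give mean and SD, and the grey band shows the range of background levels, 5.70 to 5.86. Gstt2, Gsta4 and Gsta3 lie in or below it on every DFAT array. Gstk1 lies in it on DFAT replicate 3, at 5.83, above that array's own level of 5.70. Of the genes drawn, Gsto1 and Gstp1 are higher in DFAT cells.

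Many soluble transferases of a class lie next to each other in the mouse genome, and the order of genes was taken from RefSeq. The 7 mu-class genes follow each other with no other protein-coding gene between them, and all 7 had a difference under 0, of which 5 passed the test. Gstm4 and Gstm5 fell by 2.73 and 2.71, Gstm6 by 2.01, Gstm1 by 1.14 and Gstm2 by 0.76. Of the other probe sets of Gstm1, 2 fell, by 1.16 and 0.88, and 1 did not pass the test, at -0.38 (adjusted p = 0.0609 from limma). Gstm4 had 5.29, 5.52 and 5.60 in DFAT cells, against 8.0, 8.13 and 8.48 in AC, and Gstm5 had 8.14, 8.01 and 7.98 in DFAT cells, against 10.57, 10.83 and 10.86 in AC. The groups were apart in both genes, and Gstm4 was at background level in DFAT cells, as were Gstm6 and Gstm7. Gstm3 and Gstm7 did not pass the test, at -0.43 and -0.29, though the second probe set of Gstm7 fell by 2.29 (adjusted p = 4.63e-06 from limma), and the call of Gstm3 was made without AC replicate 2 (-0.53, adjusted p = 0.0448 from limma). The genes on either side of the run, Eps8l3 and Ampd2, had differences of -0.19 and 3.20, of which that of Ampd2 passed the test. Mu-class transcripts are very alike, and a probe set of 1 may also bind others.

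The 4 theta-class genes also form an unbroken run, between Ddt and Mif. Beside Gstt2, Gstt1 had 8.15, 8.12 and 8.15 in DFAT cells, against 11.23, 10.80 and 10.92 in AC and fell by 2.85, and Gstt3 had 6.04, 6.19 and 6.25 in DFAT cells, against 8.14, 6.99 and 7.57 in AC and fell by 1.41. AC replicate 1 was the highest array in Gstt3, which fell by 1.12 without it. Gstt4 was at background level in both groups. Ddt, a relative of Mif, fell by 1.08 beside Gstt3, and Mif, a cytokine, rose by 2.32 beside Gstt2. The omega genes Gsto1 and Gsto2 are direct neighbours and both rose, and Itprip next to Gsto2 rose by 4.11. Gstp3 was at background level in both groups, as was Gsta2, with differences of -0.15 and 0.02, and neither passed the test.

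**Figure D3:**
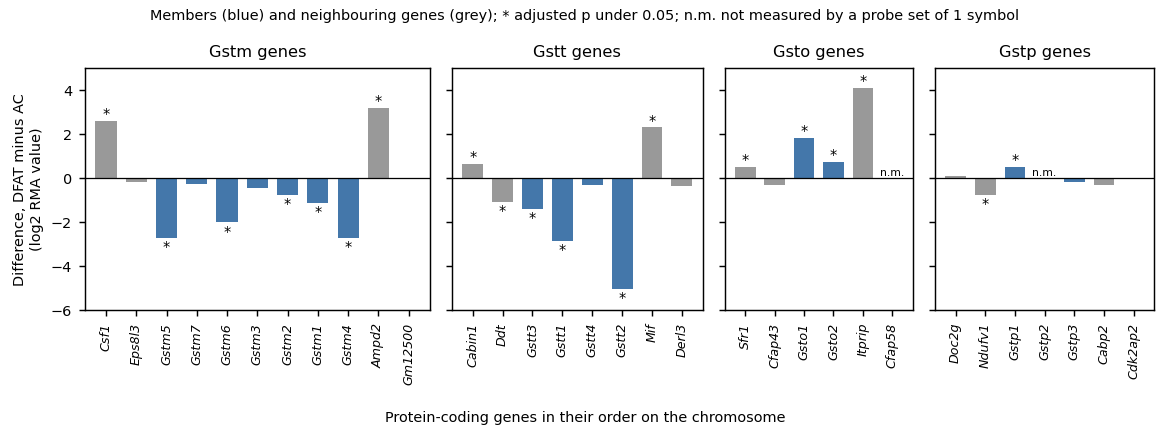
Differences between DFAT cells and AC on the log2 scale for the mu, theta, omega and pi transferases (blue) and the 2 protein-coding genes on each side (grey), drawn in the order of genes on the chromosome and not to distance. Bars are estimates from limma over 3 DFAT arrays and 3 AC arrays, a star marks an adjusted p under 0.05, and the 7 mu-class bars all point down while Csf1 and Ampd2 near them point up.

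Among the 8 glutathione peroxidases, 3 were lower and 2 higher in DFAT cells, and 3 missed the threshold. The calls made up 37.5% and 25% of them, where 23.8% and 22.6% of all genes were lower and higher. Gpx3, the secreted form that fat and kidney release into plasma, had 11.0, 11.06 and 10.93 in DFAT cells, against 13.08, 13.16 and 13.06 in AC and fell by 2.11 (adjusted p = 5.67e-06 from limma), a 4.30-fold difference. Gpx1, the cytosolic form, had 12.54, 12.62 and 12.61 in DFAT cells, against 13.39, 13.69 and 13.69 in AC and fell by 1.0 (adjusted p = 0.000715 from limma), with -0.54 (adjusted p = 0.156 from limma) after centring on hybridization controls. The groups did not overlap in these genes, and both stayed far above background level. Gpx7 and Gpx8, which reside in the ER and pass oxidation from peroxide to folding enzymes, went the other way. Gpx7 had 10.03, 10.03 and 10.08 in DFAT cells, against 8.28, 8.83 and 8.83 in AC and rose by 1.40 (adjusted p = 0.000442 from limma), and Gpx8 had 11.12, 10.99 and 10.91 in DFAT cells, against 9.81, 9.71 and 10.10 in AC and rose by 1.13 (adjusted p = 0.00057 from limma). Gpx4, which reduces lipid hydroperoxides within membranes, had 13.10, 13.11 and 13.03 in DFAT cells, against 13.22, 13.55 and 13.55 in AC. Its difference of -0.36 (adjusted p = 0.0827 from limma) did not pass the test, and it was -0.47 without AC replicate 1 (adjusted p = 0.00915 from limma).

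Gpx2, known from gut epithelium, had 4.65, 4.62 and 4.59 in DFAT cells, against 5.38, 5.06 and 5.03 in AC. It passed the test at -0.54 (adjusted p = 0.0189 from limma) although both groups were at background level. The call was lost without DFAT replicate 1, 2 or 3 (adjusted p = 0.0586, 0.0701 and 0.0745 from limma). Gpx5 of the epididymis and Gpx6 of olfactory tissue were between 4.20 and 5.29 in DFAT cells and between 4.17 and 5.92 in AC, and neither passed the test. Without AC replicate 3, Gpx5 did, at -0.55 (adjusted p = 0.0221 from limma).

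Of the peroxiredoxins, 3 genes had a probe set of their own. Prdx4, which is found in the ER and there turns peroxide into disulfides, had 11.81, 11.90 and 11.91 in DFAT cells, against 9.42, 9.66 and 9.65 in AC and rose by 2.30 (95% confidence interval 1.99 to 2.60, adjusted p = 5.32e-06 from limma), a 4.92-fold difference. Its other 3 probe sets also passed the test as higher, with differences of 0.65 to 2.99, though the one at 0.65 was at background level in both groups. Prdx3, the mitochondrial form, had 10.91, 10.92 and 10.94 in DFAT cells, against 11.16, 11.47 and 11.55 in AC and passed the test as lower at -0.47 (adjusted p = 0.0351 from limma), with no overlap between the groups. This call of Prdx3 was lost without AC replicate 2 or 3 (adjusted p = 0.0865 and 0.0898 from limma) and without DFAT replicate 1, 2 or 3 (adjusted p = 0.104, 0.11 and 0.102 from limma), and the difference was -0.34 with array medians (adjusted p = 0.118 from limma) and -0.01 after centring on hybridization controls. Prdx2, a cytosolic form abundant in red cells, had 11.67, 11.81 and 11.88 in DFAT cells, against 11.49, 11.45 and 11.56 in AC. Its difference of 0.28 (adjusted p = 0.12 from limma) did not pass the test, but with hybridization control centring it was 0.75 (adjusted p = 0.0358 from limma). The probe sets of Prdx1 carry a second symbol and were not used.

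In the thioredoxin system, the inhibitor fell while the cytosolic thioredoxin and its reductase rose. Txnip had 8.64, 8.69 and 8.52 in DFAT cells, against 12.82, 12.29 and 12.35 in AC and fell by 3.87 (95% confidence interval -4.27 to -3.48, adjusted p = 1.25e-06 from limma), and its second probe set fell by 3.57. Txn1, the cytosolic thioredoxin, had 13.0, 12.95 and 13.0 in DFAT cells, against 11.88, 12.13 and 12.26 in AC and rose by 0.89 (adjusted p = 0.00151 from limma). A second probe set of Txn1, at 6.74 to 6.99 in DFAT cells and 6.48 to 6.94 in AC, did not pass the test. Txnrd1, the cytosolic reductase and a selenoprotein, had 11.94, 12.05 and 12.04 in DFAT cells, against 9.22, 10.64 and 10.44 in AC and rose by 1.91 (adjusted p = 0.00271 from limma). AC replicate 1 was lower by 1.32 than the other AC arrays on average in Txnrd1, and without it the difference was 1.47. The other 2 probe sets of Txnrd1 rose by 2.14 and 1.21.

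No increase passed the test in the mitochondrial arm. Txn2, the mitochondrial thioredoxin, had 9.86, 10.07 and 9.93 in DFAT cells, against 9.96, 9.92 and 10.05 in AC, with a difference of -0.03 (95% confidence interval -0.33 to 0.27) that did not pass the test. Txnrd2, its reductase, had 7.54, 7.80 and 7.63 in DFAT cells, against 7.91, 8.22 and 8.35 in AC and passed as lower at -0.50 (adjusted p = 0.0394 from limma). Of its other 3 probe sets, 2 fell, by 1.05 and 0.74, and 1 did not pass the test. As with Prdx3, the call of Txnrd2 was lost without AC replicate 2 or 3 (adjusted p = 0.0934 and 0.105 from limma), without DFAT replicate 1, 2 or 3 (adjusted p = 0.136, 0.0668 and 0.12 from limma) and after centring on array medians, at -0.37, or on hybridization controls, at -0.04. Txnrd3, a reductase known from testis, had 8.28, 8.33 and 8.27 in DFAT cells, against 7.10, 8.21 and 8.53 in AC. The groups overlapped in Txnrd3, and its difference of 0.34 was -0.08 without AC replicate 1, which was lower by 1.27 than the other AC arrays on average.

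**Figure D4:**
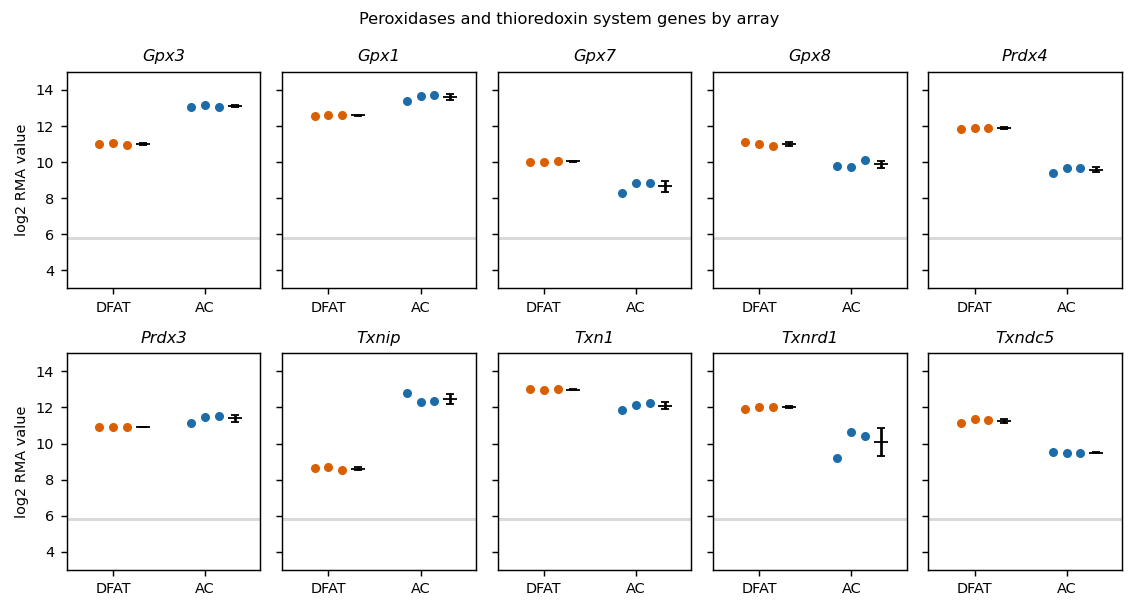
Log2 RMA values of 10 peroxidase and thioredoxin system genes on the 3 DFAT arrays and 3 AC arrays. Each point is an array, black marks give mean and SD, and the grey band shows the range of background levels. Gpx7, Gpx8, Prdx4, Txn1, Txnrd1 and Txndc5 are higher in DFAT cells, and Gpx3, Gpx1, Prdx3 and Txnip are lower.

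Of the 12 proteins with a thioredoxin domain, 3 rose and 2 fell (25% and 16.7%), where 22.6% and 23.8% of all genes did. The other 7 did not pass the test. Txndc5, a protein disulfide isomerase of the ER, had 11.13, 11.34 and 11.29 in DFAT cells, against 9.52, 9.46 and 9.50 in AC and rose by 1.76 (adjusted p = 1.77e-05 from limma), with 1.78 from its second probe set. Txndc11, an ER membrane protein known in human cells to bind dual oxidase, had 7.40, 7.39 and 7.44 in DFAT cells, against 6.78, 6.86 and 6.92 in AC and rose by 0.56 (adjusted p = 0.00758 from limma). Txnl1, a thioredoxin bound to the proteasome, had 11.77, 11.73 and 11.69 in DFAT cells, against 9.61, 10.75 and 10.56 in AC and rose by 1.42 (adjusted p = 0.0045 from limma). AC replicate 1 was the lowest there, and without it Txnl1 rose by 1.07. Of its other 5 probe sets, 2 rose, by 0.94 and 1.22, and 3, at background level in both groups, did not pass the test. Txndc16, also an ER protein, had 5.75, 5.74 and 5.58 in DFAT cells, against 6.63, 7.38 and 7.33 in AC and fell by 1.42 (adjusted p = 0.00105 from limma) to background level. Txnl4b, a relative of a spliceosome subunit, had 6.42, 6.20 and 6.67 in DFAT cells, against 7.54, 7.67 and 8.0 in AC and fell by 1.31 (adjusted p = 0.000727 from limma).

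The 7 thioredoxin domain genes that did not pass had differences between -0.21 and 0.35. Txndc12, an ER thioredoxin, had 9.62, 9.58 and 9.61 in DFAT cells, against 9.66, 9.57 and 9.62 in AC, with a 95% confidence interval of -0.29 to 0.26 for the difference. The values of DFAT cells lay within the range of AC in Txndc12. Txnl4a, the spliceosome subunit itself, had a difference of 0.35 (adjusted p = 0.0583 from limma) from its brightest probe set, which was 0.37 without AC replicate 1 (adjusted p = 0.0335 from limma), while another of its probe sets rose by 0.90. Txndc2 and Txndc8, known from sperm, were at background level in both groups. Txndc9, Txndc15 and Txndc17 had differences of 0.07, -0.09 and -0.21, and their groups overlapped.

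The proteins were also sorted by where they are known to reside, a grouping made with these values known, so its counts depend on which members it takes in. Of the 7 thioredoxin-fold ER proteins Gpx7, Gpx8, Prdx4, Txndc5, Txndc11, Txndc12 and Txndc16, 5 rose and 1 fell, where 22.6% of all genes rose, and their median difference was 1.13. With the 3 microsomal transferases, which are ER proteins too and all fell, 5 of 10 rose and 4 fell, and the median difference was 0.27. These counts stood under each of the 18 alternatives run on single genes. Of 4 proteins of mitochondria, Gstk1, Prdx3, Txn2 and Txnrd2, 0 rose and 3 fell, and with Mgst1 4 of 5 fell, where 23.8% of all genes did. Gstk1 alone of the 4 fell at a threshold of 0.01, with array medians, hybridization control centring, the replicate block or without any 1 array other than AC replicate 1. Of 7 selenoproteins, Txnrd1 rose, Gpx1, Gpx2, Gpx3 and Txnrd2 fell, and Gpx4 and Txnrd3 did not pass the test. Thus 14.3% rose and 57.1% fell, where 22.6% and 23.8% of all genes did. The 4 that fell included Gpx2, at background level in both groups, and 2 fell with array medians or without any 1 DFAT array, and 1 with hybridization control centring.

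Of 11 other genes of oxidative folding, 8 rose and 1 fell, where 22.6% and 23.8% of all genes did. Pdia5, a disulfide isomerase, rose by 3.59 to 10.37 ± 0.06 in DFAT cells, against 6.78 ± 0.11 in AC (SD, n = 3 each). Ero1a, the oxidase that feeds disulfides into the ER, rose by 1.56, while its relative Ero1b fell by 0.82. Under the other scalings 7 to 9 rose and at most 1 fell.

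Of 16 genes of glutathione synthesis and turnover, 4 rose and 4 fell (25% each), near the 22.6% and 23.8% of all genes, and with hybridization control centring 5 rose and 2 fell. Gclc and Gclm, the subunits of the rate-limiting ligase, rose by 1.11 and 1.26. Gsr, which reduces oxidized glutathione, rose by 1.12, and by 0.78 without AC replicate 1. Gclm had 10.96 ± 0.04 in DFAT cells and 9.70 ± 0.27 in AC (SD, n = 3 each). Slc7a11, the cystine carrier, rose by 1.5, with AC at background level, and by 1.12 without AC replicate 1. In DFAT cells Slc7a11 had 5.96, 5.58 and 5.54, and only DFAT replicate 1 exceeded the background level of its array. Oplah, which returns oxoproline to glutamate, fell by 4.40 to background level, and Anpep passed as lower at -1.28, with both groups at background level. Gclc and Gsr were named after their values were seen. Of 12 glutaredoxins and repair enzymes, 3 rose and 3 fell, again 25% each and near the shares of all genes, and without AC replicate 1 the number that fell was 5. Msrb3, a methionine sulfoxide reductase, and Srxn1, which restores overoxidized peroxiredoxins, rose by 1.61 and 1.58, and Srxn1 by 1.02 without AC replicate 1. Msrb2, a mitochondrial relative of Msrb3, fell by 3.71 to background level, and Sesn3, a sestrin, fell by 2.85.

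Of 5 genes of superoxide and peroxide removal, 4 fell and 0 rose, where 23.8% of all genes fell. Sod3, the extracellular superoxide dismutase, had 4.55 ± 0.06 in DFAT cells, at background level, and 10.31 ± 0.25 in AC (SD, n = 3 each), a fall by 5.76. Sod2 of mitochondria and catalase, Cat, each fell by 1.87. Under hybridization control centring 3 of the 5 fell, and 5 of the 5 without AC replicate 1. Of 10 genes of the NRF2 system, which switches on many transferase and thioredoxin genes under electrophile stress, 5 rose and 1 fell, where 22.6% and 23.8% of all genes did. Nqo1, a quinone reductase and a well-known NRF2 target, had 9.16 ± 0.14 in DFAT cells and 6.18 ± 0.17 in AC (SD, n = 3 each), and Abcc4, an exporter of conjugates, rose by 2.93. Mafk, a small partner of NRF2, fell by 0.90, a call lost with hybridization control centring. The gene of NRF2 itself, Nfe2l2, had a difference of 0.12 that did not pass the test. Without AC replicate 1, 5 rose and 4 fell, the added ones being Maff, Bach1 and Hmox1, which were named with Nfe2l2 and Cat after their values were seen. The lists of partners were chosen with earlier results of these data known.

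The DNA letters that NRF2 is known to bind, the antioxidant response element TGACNNNGC, were looked up on both strands of the RefSeq promoters, from 250 bases before to 50 bases after each gene start in GRCm38.p6. Of the 52 genes, 48 had an entry, with 66 promoters in all. The letters stood in 12.1% of these promoters and in 12.4% of all 32851 promoters, so the share was near that of all promoters. By gene, they were in 8 of the 48 (16.7%), against 14% of all 27025 genes with a promoter entry. Of the 8 genes, 3 rose (Txnrd1, Txndc5 and Txndc11), 3 fell (Gsta3, Gstm5 and Mgst1) and 2 did not pass the test (Gstm7 and Txndc2). A pair that rose and a pair that fell are shown from 5′ to 3′, with the matching letters in capitals, which in Txnrd1 and Mgst1 are on the other strand.
Txnrd1 promoter, chr10:82858956-82859255, plus strand: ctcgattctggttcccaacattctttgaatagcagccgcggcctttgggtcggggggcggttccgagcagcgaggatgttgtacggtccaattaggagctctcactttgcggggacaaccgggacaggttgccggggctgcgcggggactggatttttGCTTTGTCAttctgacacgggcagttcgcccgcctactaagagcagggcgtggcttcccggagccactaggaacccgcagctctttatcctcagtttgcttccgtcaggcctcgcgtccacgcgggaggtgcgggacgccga
Txndc5 promoter, chr13:38527865-38528164, minus strand: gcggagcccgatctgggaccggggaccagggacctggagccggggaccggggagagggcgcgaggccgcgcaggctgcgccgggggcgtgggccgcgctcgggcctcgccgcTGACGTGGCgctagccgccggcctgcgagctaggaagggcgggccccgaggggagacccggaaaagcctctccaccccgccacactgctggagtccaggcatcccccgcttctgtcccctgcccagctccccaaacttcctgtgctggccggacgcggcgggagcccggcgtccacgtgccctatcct
Mgst1 promoter, chr6:138140277-138140576, plus strand: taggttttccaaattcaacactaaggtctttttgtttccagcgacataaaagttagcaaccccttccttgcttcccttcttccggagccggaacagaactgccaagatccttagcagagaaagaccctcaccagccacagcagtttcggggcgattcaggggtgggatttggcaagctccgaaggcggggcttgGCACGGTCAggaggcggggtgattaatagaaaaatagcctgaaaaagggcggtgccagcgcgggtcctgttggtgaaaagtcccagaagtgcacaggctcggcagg
Gsta3 promoter, chr1:21240335-21240634, plus strand: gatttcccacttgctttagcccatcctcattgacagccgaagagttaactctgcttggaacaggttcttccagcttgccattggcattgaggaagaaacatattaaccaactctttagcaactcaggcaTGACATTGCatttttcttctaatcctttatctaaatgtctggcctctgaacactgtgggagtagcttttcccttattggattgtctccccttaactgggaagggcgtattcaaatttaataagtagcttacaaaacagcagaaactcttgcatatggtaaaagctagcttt
Counted from the gene start, the match began at -92 in Txnrd1, -138 in Txndc5, -56 in Mgst1 and -121 in Gsta3. A start site box TATAAA, searched on both strands too, was in 12.1% of the members' promoters and in 13.6% of all promoters. A match of letters is a description and no sign of binding.

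For the members with several probe sets the direction was the same across them wherever both were called. Of the 23 such genes, 13 passed the test, and in 7 of them all probe sets shared the call, while in 6 at least 1 missed the threshold. In 0 of them was a probe set called in the opposite direction. In Gstm7 and Txnl4a the brightest probe set did not pass while another did. Levels of different probe sets were not set against each other, and probe sets that end in _x_at or _s_at, which can match other transcripts, represented 4 genes: Gstm1, Gstm3, Txndc9 and Txndc17.

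AC replicate 1 lay below both other AC arrays in 27 of the 52 genes and above both in 13. It was lower than their mean by over 1 in 3 genes, Txnrd1, Txnrd3 and Txnl1, and higher by over 1 in 0. Leaving it out moved the difference by over 0.3 in Txnrd1, Txnrd3, Txnl1 and Gsta3.

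**Figure D5:**
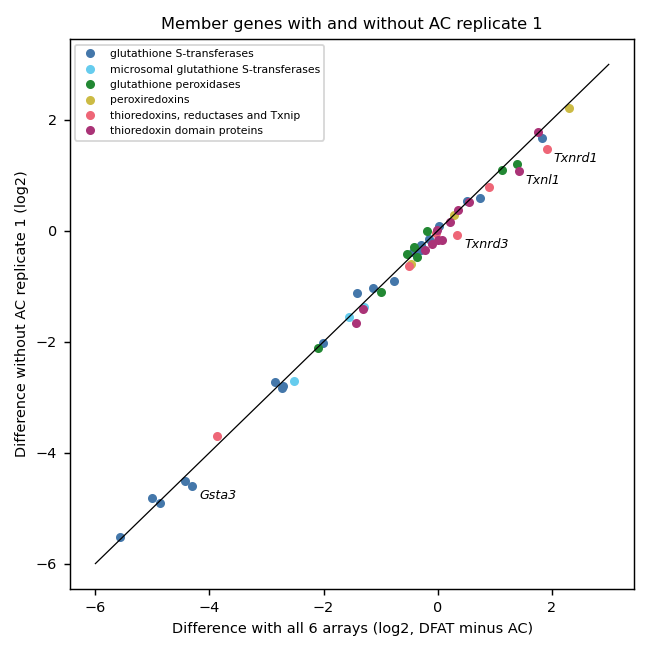
Differences of the 52 genes between DFAT cells and AC on the log2 scale, with all 6 arrays (horizontal) and without AC replicate 1 (vertical). The line marks equal values, and Txnrd1, Txnl1, Txnrd3 and Gsta3 lie furthest from it, with Txnrd1 at 1.91 and 1.47.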

How the data were processed

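Values of 6 arrays were used, 3 of DFAT cells and 3 of AC, grouped by the sample titles. The log2 values deposited by the authors were made with RMA, which corrects the background, brings arrays to 1 distribution and summarizes the probes of a probe set; its version and which arrays were normalized together are not given in the sources used here. Hepatocyte and liver stem cell arrays of the study were not analysed here.

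Gene symbols came from the platform annotation: 34945 probe sets had 1 symbol, 932 had several, 9160 had none, and 64 controls were not tested. Of those with 1 symbol, 34741 matched the RefSeq table of GRCm38.p6 by Entrez ID. The groups were compared by limma 3.58.1 under R 4.3.3 (lmFit and eBayes, two-sided, Benjamini-Hochberg over 45037 probe sets, threshold 0.05). With 3 arrays a group, the smallest exact permutation p is 0.1, so none was run. On simulated data with 200 of 45037 probe sets changed, the step recovered 44% of shifts of 1 and 88% of shifts of 2 (log2) and made 9 false calls. In the real data 38.4% of probe sets were called, and the simulation gave both groups the same spread. Its rates therefore need not hold for this comparison. The number of arrays limits the precision.

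Values in every array were given for up to 5 genes of each family with the largest difference past the test and for those past it in the other direction, and of each list of partners the 2 with the largest difference in each direction were named; other genes were named after their values were seen. The members and lists were chosen with earlier results of these data known. Alternatives were other scalings (quantile again, array medians, 11 reference genes, 18 hybridization control probe sets), a floor at background level, leaving out dim probe sets, other variances, array weights, a block for the replicate number, the mean over a gene's probe sets, no probe sets ending in _x_at or _s_at, a threshold of 0.01, the 4-fold rule, background at the 90th or 99th percentile and leaving out each array. Deviations from the group mean in AC and DFAT arrays of the same replicate number had correlations of -0.02, -0.03 and 0.01. Such values do not settle whether the numbers pair samples, and the labels do not say. Python 3.11.15 with pandas 2.3.3, numpy 2.4.6 and matplotlib 3.10.9 made the tables and plots.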

Additional observations from a re-analysis of the deposited data

How the results depend on the processing

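No called gene changed direction under the 18 alternatives run on single genes, and 28 of the 34 calls were kept under all of them; the others were Gpx1, Gpx2, Gstm2, Gstp1, Prdx3 and Txnrd2. Centring on the hybridization controls moved the median difference of all probe sets to 0.40, against -0.06 as deposited, and with it 18 of the 52 genes fell and 13 rose, without calls for Gpx1, Gpx2, Gstm2, Prdx3 and Txnrd2 (Gstm2 at -0.30, adjusted p = 0.448 from limma). Over all probe sets, the share of calls that were higher was 52.9% as deposited, 78.5% with the hybridization controls, 63.0% with array medians and 60.9% with the floor, and 3405 and 4954 probe sets fell with the hybridization controls and the floor, against 8133. The 4-fold rule without a test gave 12 genes lower and 1 higher. With the replicate number as a block, 21 genes fell and 11 rose, where 7384 and 8639 of all probe sets did. Prdx3 and Txnrd2 then lost their calls (adjusted p = 0.0649 and 0.0517 from limma). Whether the numbers pair samples is not known. Leaving out 1 array gave 20 to 24 genes lower and 10 to 12 higher. With background set at the 90th percentile, 9 genes lay there in DFAT cells and 7 in AC, and with the 99th, 15 and 10. The annotation's probe sets with several symbols, such as those of Prdx1, were not analysed here.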

Other observations

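Of 7 measured enzymes that supply NADPH, which both systems use, 3 rose and 2 fell in DFAT cells against AC, where 22.6% and 23.8% of all genes did, and without AC replicate 1 the number that fell was 3. Mthfd2, a mitochondrial enzyme of the folate cycle, rose by 4.73, to 10.60 ± 0.05 in DFAT cells, against 5.86 ± 1.07 in AC (SD, n = 3 each), and by 4.12 without AC replicate 1. Nnt, the mitochondrial transhydrogenase, rose by 1.23, and by 0.92 without AC replicate 1. Me1, malic enzyme, had 10.31 ± 0.0043 in DFAT cells and 13.01 ± 0.20 in AC (SD, n = 3 each), and Idh1, the cytosolic isocitrate dehydrogenase, fell by 2.50.

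Of 8 genes that build selenoproteins, 2 rose and 1 fell (25% and 12.5%), where 22.6% and 23.8% of all genes did. Eefsec, the elongation factor for selenocysteine, rose by 1.16, and Sephs1 rose by 0.90. Sepsecs, which makes selenocysteine on its tRNA, fell by 1.33, to 6.29 ± 0.14 in DFAT cells, against 7.62 ± 0.55 in AC (SD, n = 3 each), a call lost with hybridization control centring.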
